A study of Mus musculus with 14 samples.

Results

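The cyclin-dependent kinase inhibitor genes are described here in mouse hair follicle stem cells. The 7 genes were chosen by family: Cdkn1a, Cdkn1b and Cdkn1c make up the CIP/KIP family, and Cdkn2a, Cdkn2b, Cdkn2c and Cdkn2d the INK4 family. They are 7 of 34049 genes with any count in the series. All 7 were found in the files, and 6 passed the filter on low counts that kept 24592 genes, Cdkn2a being the exception. Each gene was set against Mki67, a gene expressed in dividing cells, in each library.

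Total RNA was sequenced from cells sorted out of trypsin-digested back skin as positive for CD34 and for a marker the labels write CD45f, and negative for Ly-6A/E. The series has 14 libraries: 3 labelled Irx5KO and 3 labelled WT at postnatal day 18 (P18), and 4 of each at postnatal day 20 (P20). Irx5 encodes a homeobox transcription factor, and the title of the series links it to DNA repair and to stem cell activation. How the Irx5 allele was made, the strain, the sex, and whether a library is 1 animal or a pool were not given in the sources used here, so p-values measure the spread between libraries, which may be partly technical. A date code splits each age into an earlier and a later date with both genotypes on each, and what step it dates was not given. At P18 the earlier date holds Irx5KO 1, WT 1 and WT 2, and the later date Irx5KO 2, Irx5KO 3 and WT 3, whose deposited data also carry the word het. At P20 the later date holds libraries 1 and 2 of each genotype and the earlier date libraries 3 and 4.

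Cyclin-dependent kinases drive cells through the division cycle once they bind a cyclin, and the products of these genes hold that activity back. INK4 proteins bind the kinases of the D-type cyclins, CDK4 and CDK6, and keep them from their cyclins. CIP/KIP proteins bind whole cyclin and kinase complexes, mainly those of CDK2, and can also help D-type complexes to assemble. Hair follicle stem cells of the bulge rest through most of the hair cycle and divide briefly at the start of growth, so inhibitors of the cycle are of interest in them.

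The targeted gene was read first. In CPM, the counts scaled to library size with TMM factors over well-expressed genes, Irx5 was 93.8, 109.6 and 132.3 in the P18 libraries labelled WT 1 to 3 and 48.0, 70.6 and 73.4 in those labelled Irx5KO 1 to 3. Group means were 111.9 ± 19.3 (SD, n = 3) and 64.0 ± 13.9 (SD, n = 3), and a two-sided exact permutation test gave p = 0.1, the smallest this design allows. Irx5 on the later P20 date was 107.6 and 93.5 in WT 1 and 2, against 30.0 and 18.1 in Irx5KO 1 and 2. The earlier P20 date had 33.2 and 37.5 in WT 3 and 4, against 180.6 and 170.1 in Irx5KO 3 and 4. In Irx5 transcript the P20 libraries numbered 3 and 4 therefore went against their labels, and each P20 result is given by date. Over all 8 P20 libraries the exact permutation test gave p = 0.629, with 0.0286 the smallest possible.

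The 4 P20 libraries with the highest Irx5 also had the highest Mki67. Mki67 was 428.8 and 227.8 CPM in WT 1 and 2, 18.5 and 14.5 in Irx5KO 1 and 2, 10.5 and 3.75 in WT 3 and 4, and 1252 and 1418 in Irx5KO 3 and 4. The P18 libraries had 36.03, 36.52 and 19.59 in WT and 14.1, 22.7 and 26.6 in Irx5KO. Total estimated counts ran from 13618367 in P20 Irx5KO 3 to 70083873 in P18 Irx5KO 3. The defining bulge markers Cd34, Krt15, Lgr5, Sox9 and Nfatc1 were present in every library, with Cd34 between 241.5 and 918.9 CPM. Olfactory and vomeronasal receptor genes took 1.80% of counts in P18 WT 1, 5.45% in P18 WT 2 and 2.41% in P20 WT 2, against 0.102% to 0.612% in the other 11 libraries. Ddx3y, a Y-linked gene, was at 0.533 to 0.571 CPM in the 3 earlier P18 libraries, 0.127 in P20 WT 1 and 0.374 in P20 Irx5KO 1, and at 53.6 to 135.5 in the other 9. Its part in the results was not tested.

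Levels of different genes were compared in TPM, which is scaled by transcript length and so allows genes to be set beside each other. Cdkn1a, which encodes p21, exceeded the next gene, Cdkn1b, in 11 of 14 libraries, with a mean of 126.1 ± 70.9 TPM (SD, n = 14). Cdkn1b, encoding p27, followed at 54.0 ± 15.9. Cdkn1c, encoding p57, and Cdkn2d, encoding p19Ink4d, stood at 20.9 and 16.9, and Cdkn2c (p18Ink4c) and Cdkn2b (p15Ink4b) at 3.48 and 3.04. Cdkn2a, which encodes p16Ink4a and p19Arf, was listed at 0 in 11 libraries and had a mean of 0.376. The ranges of Cdkn1a and Cdkn1b did not overlap in P18 Irx5KO (84.6 to 182.4 against 63.3 to 75.2 TPM), but they overlapped in the other 3 groups. Cdkn1c and Cdkn2d could not be ordered, since their ranges overlapped in all 4 groups.

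**Figure D1:**
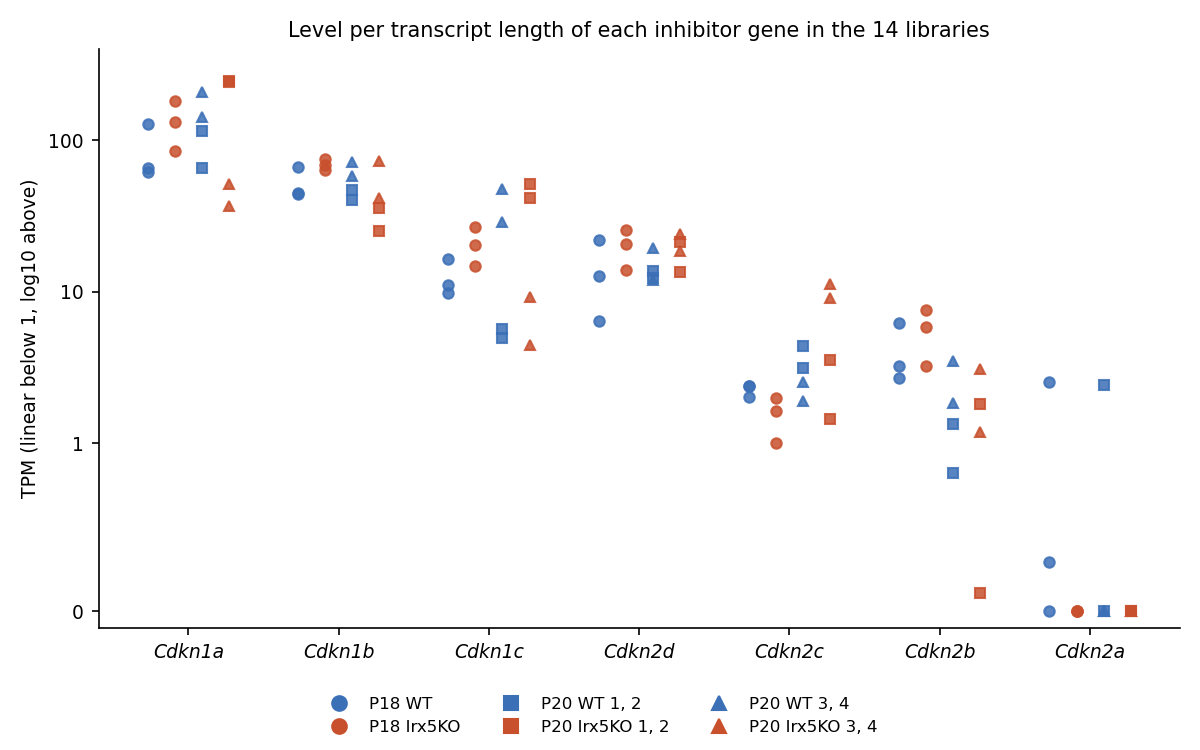
TPM of the 7 inhibitor genes in the 14 libraries, on an axis that is linear below 1 and log10 above. Each point is a library, coloured by labelled genotype and shaped by age and P20 library number. Cdkn1a lay above Cdkn1b in 11 libraries, and Cdkn2a was at 0 in 11.

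Cdkn1a, at chr17:29090976-29100727 on the plus strand (GRCm38), is the p21 gene, a target of p53 and of growth arrest signals. In P18 libraries it was 188.7, 90.6 and 96.1 CPM in WT and 293.7, 132.5 and 204.3 in Irx5KO. WT 1 exceeded Irx5KO 2, so the groups overlapped, but the Irx5KO libraries were above every WT library of their own date on both dates. The fitted difference was 0.94 ± 0.72 on the log2 scale (SE, edgeR adjusted p = 0.92), from a fit with 1 genotype term for both P20 dates. Cdkn1a on the later P20 date was 203.7 and 106.9 CPM in WT 1 and 2 and 418.5 and 388.5 in Irx5KO 1 and 2. Those groups did not overlap, and the difference of 1.38 ± 0.42 (log2) did not pass, with an edgeR adjusted p of 0.312 (6.49e-04 with no expression filter, where it was called). The earlier date had 362.4 and 223.9 in WT 3 and 4 and 59.9 and 96.1 in Irx5KO 3 and 4, and Cdkn1a fell by 1.91 ± 0.43 (log2, edgeR adjusted p = 0.0237). Thus p21 transcript was higher on each P20 date in the libraries with little Mki67 and lower in those with much, whatever the label. The fall on the earlier date lost its call without Irx5KO 3 (adjusted p = 0.133), Irx5KO 4 (0.0563) or WT 3 (0.178).

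A list of 9 genes that cell dissociation is known to induce moved with Cdkn1a and Cdkn1c on both P20 dates. It holds immediate early genes such as Fos and the heat shock genes Hspa1a and Hspa1b. Its summed level was 16490 and 16920 CPM in P20 WT 1 and 2 against 27550 and 34380 in Irx5KO 1 and 2, and 43420 and 41780 in WT 3 and 4 against 16280 and 22280 in Irx5KO 3 and 4. All 9 had positive estimates on the later date (none passing, 5 at an unadjusted edgeR p under 0.05, median 0.92). None did on the earlier date (2 fell, 9 at an unadjusted p under 0.05, median −1.04). Over all 24592 genes tested, 1702 had such a p on the later date and 4172 on the earlier date. The same totals apply to the gene lists below. For the change between dates 6 of the 9 were called lower. Against Mki67 over all libraries none had a positive slope (none passing, 9 at an unadjusted p under 0.05, as were 2810 of all 24591 genes tested). At P18 all 9 had positive estimates, none passing. The part of this response in the Cdkn1a and Cdkn1c results was not tested. Summed granular and cornified layer genes were 5311 CPM in P20 Irx5KO 1 and 711.7 to 1853 in the other 7 P20 libraries, with 7 of 7 estimates positive on the later date (none passing) and 6 of 7 on the earlier date, and their part was not tested either. The falls of Cdkn1a and Cdkn1c on the earlier date also came with changes in markers of other cells. None of 5 endothelial markers had a positive estimate there (median −5.71), and Kdr fell by 7.55 ± 2.04 (adjusted p = 0.0494). In Irx5KO 3 and in Irx5KO 4, 4 of the 5 endothelial markers were at 0, not necessarily the same 4. The endothelial sum was 6.29 and 12.2 CPM in WT 3 and 4 against 6.87 and 3.59 in Irx5KO 3 and 4. Of 6 fibroblast markers 1 had a positive estimate (median −2.59) and Pdgfra fell by 5.53 ± 1.51 (adjusted p = 0.0491), with sums of 327.2 and 209.1 against 303.7 and 291.8. Of 6 sebaceous markers Fasn rose by 1.36 ± 0.30 and Scd3 fell by 3.10 ± 0.57, with sums of 190.4 and 213.6 against 500.4 and 411.3. None of 8 hair matrix, 5 melanocyte, 5 T cell, 5 Langerhans cell and macrophage, 4 skeletal muscle and 10 bulge markers passed there, with medians of −1.31, −2.79, −0.84, −0.99, 0.00 and −0.33. No marker of any of these lists passed on the later date or at P18, and their part in the results was not tested.

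RefSeq gives Cdkn1a a pair of start sites, and the windows around them are shown because the libraries used them very unequally. Each runs from 250 bases before the start to 50 bases from it, in the RefSeq annotation of GRCm38.p6, so the last 50 bases are transcribed and noncoding. Capitals mark matches, on either strand, to the p53 half-site, the Sp1 motif GGGCGG or the E2F motif TTTNNCGC.
Cdkn1a upstream start, chr17:29090729-29091028, plus strand: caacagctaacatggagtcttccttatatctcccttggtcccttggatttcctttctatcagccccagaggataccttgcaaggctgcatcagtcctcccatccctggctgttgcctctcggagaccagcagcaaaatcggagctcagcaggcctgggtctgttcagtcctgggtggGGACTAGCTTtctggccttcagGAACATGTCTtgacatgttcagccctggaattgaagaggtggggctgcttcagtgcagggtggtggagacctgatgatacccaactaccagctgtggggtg
Cdkn1a downstream start, chr17:29093519-29093818, plus strand: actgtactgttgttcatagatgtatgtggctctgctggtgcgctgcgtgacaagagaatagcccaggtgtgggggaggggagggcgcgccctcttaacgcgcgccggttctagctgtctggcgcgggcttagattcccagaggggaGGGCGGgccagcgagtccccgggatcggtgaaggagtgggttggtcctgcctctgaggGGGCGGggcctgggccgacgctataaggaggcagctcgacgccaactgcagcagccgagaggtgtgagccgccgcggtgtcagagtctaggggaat
The upstream window holds 2 matches to the p53 half-site and no GGGCGG, and its GC content is 54.7%. The downstream window has 2 GGGCGG matches, no p53 half-site and a GC content of 64.7%, against a median of 52.7% over the 32851 RefSeq windows. A p53 half-site lies in 8.36% of all windows and GGGCGG in 35.7%. Transcripts from the downstream start (Cdkn1a-201 and Cdkn1a-205) held 95.7% of the Cdkn1a estimated counts, between 83.8% and 99.3% by library. Those from the upstream start (Cdkn1a-202 and Cdkn1a-204) held 0.0852%, or 84.9 counts in all libraries together, 41.0 of them in P18 WT 2, which was rich in receptor counts. The remainder belonged to Cdkn1a-203, which starts further inside the gene.

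The 2 main Cdkn1a transcripts differ in the first exon, which is noncoding in both. It spans 93 bases in Cdkn1a-201 (chr17:29093769-29093861) and 261 bases in Cdkn1a-205 (chr17:29093781-29094041), and the coding parts of both transcripts are the same. Of the counts of these transcripts, Cdkn1a-205 took 42.4%, 32.0% and 67.3% in P18 WT 1 to 3 and 22.5%, 53.7% and 39.2% in P18 Irx5KO 1 to 3. At P20 it took 4.85%, 9.90%, 7.69% and 8.93% in WT 1 to 4 and 18.4%, 13.9%, 8.93% and 13.8% in Irx5KO 1 to 4. All 8 P20 libraries lay below all 6 P18 libraries, on both dates of each age and in both labelled genotypes. These shares are estimates of the read assignment model, the feature was singled out after its values were seen, and it has no test. Each age has its own dates, so age and date cannot be told apart.

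**Figure D2:**
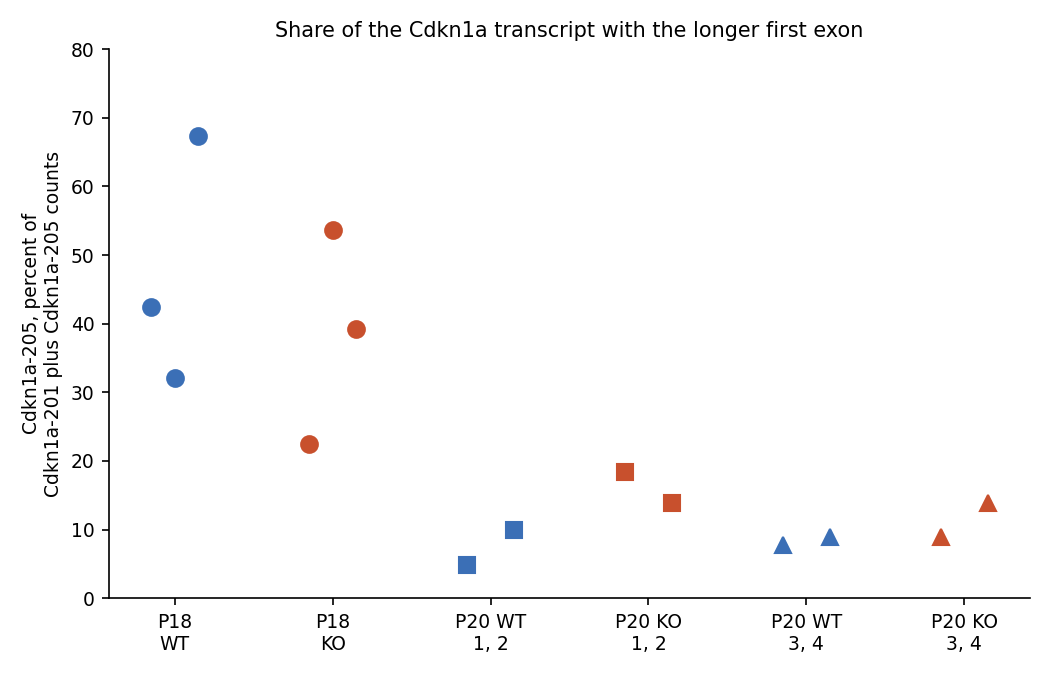
Share of Cdkn1a-205, the transcript with the longer first exon, in percent of the estimated counts of Cdkn1a-201 and Cdkn1a-205, by library (KO, labelled Irx5KO). The 6 P18 libraries lie between 22.5% and 67.3% and the 8 P20 libraries between 4.85% and 18.4%.

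Cdkn1b, at chr6:134920401-134925513 on the plus strand, encodes p27, which is kept high in resting cells and destroyed through the SKP2 ubiquitin ligase before DNA replication. Its transcript varied the least of the 6 genes tested, with 3.05-fold between the lowest and the highest library. At P18 it was 115.0, 112.0 and 173.1 CPM in WT and 154.5, 167.5 and 177.3 in Irx5KO, and the groups overlapped through WT 3. The later P20 date had 122.3 and 95.4 in WT and 66.4 and 80.3 in Irx5KO. The earlier date had 139.7 and 166.3 in WT and 112.9 and 202.5 in Irx5KO, which enclosed both WT libraries. None of these differences passed: 0.22 ± 0.26 at P18, −0.57 ± 0.28 on the later date (edgeR adjusted p = 0.725) and 0.04 ± 0.28 on the earlier date, all log2 with SE; the last turned to −0.07 with TMM factors over all genes. Cdkn1b was 202.5 CPM in the library with the most Mki67, 166.3 in that with the least and 66.4 in P20 Irx5KO 1, where Mki67 was 18.5. Across all libraries its fitted log2 change per doubling of Mki67 was 0.00 ± 0.04 (SE).

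Cdkn1c, at chr7:143458339-143461050 on the minus strand, encodes p57, is imprinted and is expressed from the maternal copy. At P18 it was 11.5, 10.1 and 9.77 CPM in WT and 18.97, 19.56 and 13.95 in Irx5KO. These groups did not overlap. Cdkn1c was the only inhibitor gene of which this was so at P18, where 23.4% of all genes tested (3.88% in this direction) had groups without overlap. Only 27.68% of all genes tested had positive P18 estimates, so 3.88% is a low benchmark for a well-expressed gene. The fitted difference of Cdkn1c was 0.80 ± 1.14 (log2, edgeR adjusted p = 0.943), so it did not pass. That SE came from a fit of all libraries with 1 genotype term for both P20 dates, where Cdkn1c moved in opposite directions. It is wider than the SE of 0.41 in the fit with a term for each date and genotype. Cdkn1c on the later P20 date was 3.79 and 6.16 CPM in WT 1 and 2 and 38.2 and 48.4 in Irx5KO 1 and 2. It rose by 3.12 ± 0.41 (log2, edgeR adjusted p = 0.0018), and this was the only inhibitor called there. The earlier date had 29.5 and 42.7 CPM in WT 3 and 4 and 5.09 and 4.69 in Irx5KO 3 and 4, and Cdkn1c fell by 2.88 ± 0.41 (log2, edgeR adjusted p = 7e-04). The 4 libraries with the highest Mki67 thus held 3.79 to 6.16 CPM of Cdkn1c and the other 10 held 9.77 to 48.4, with no overlap. This split was drawn from Mki67 values, and the share of all genes without overlap across it was not computed. The rise on the later date missed the threshold when only its 4 libraries were fitted (adjusted p = 0.0515) and in limma voom (adjusted p = 0.286), with estimates of 3.13 and 3.17. Both calls held in each of the 14 fits that left out 1 library.

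**Figure D3:**
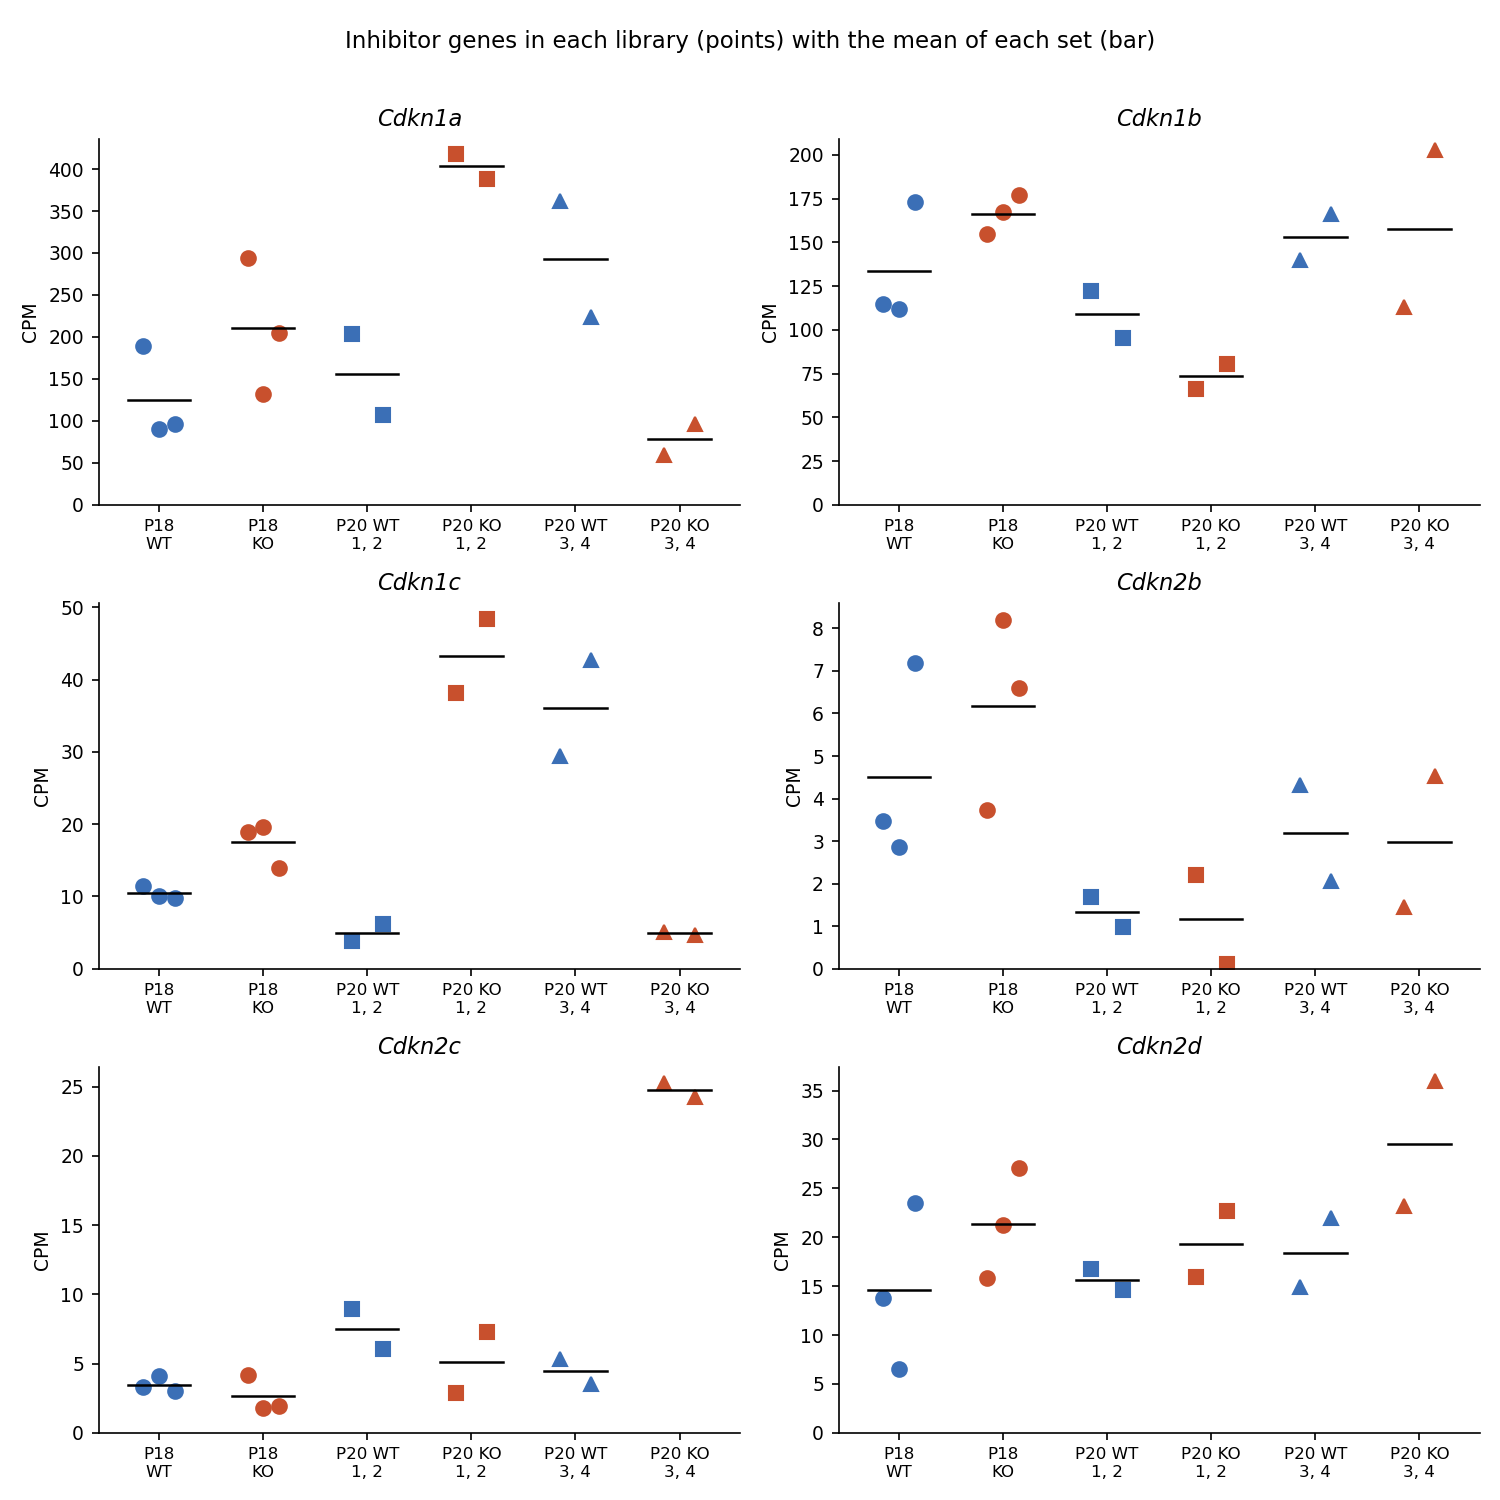
CPM of the 6 inhibitor genes tested, with a point for each library and a bar at the mean of each set (KO, labelled Irx5KO; P20 libraries 1 and 2 are the later date, 3 and 4 the earlier). Cdkn1c and Cdkn1a were high in P20 Irx5KO 1 and 2 and in P20 WT 3 and 4, and Cdkn2c stood out in P20 Irx5KO 3 and 4.

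Of the INK4 genes, Cdkn2a (chr4:89274471-89294653, minus strand) was close to absent. Its products restrain the cycle through CDK4 and CDK6 (p16Ink4a) and through p53 (p19Arf). Counts were 7, 33 and 0 in P18 WT 1 to 3, 44 in P20 WT 2 and 0 in the other 10 libraries. Every library with counts was therefore 1 of the 3 rich in receptor counts, and no library labelled Irx5KO had any. A count of 0 allows up to 3 counts, which is 0.0454 to 0.206 CPM by library and covers counting error only. The p16Ink4a transcript held 57 of the 84 estimated counts and the p19Arf transcript 27. Cdkn2a was not tested, and nothing about its change can be read at this depth.

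Cdkn2b, its neighbour at chr4:89306299-89311039 on the minus strand, encodes p15Ink4b, known as a target of TGF-beta signals. At P18 it was 3.48, 2.86 and 7.19 CPM in WT and 3.74, 8.20 and 6.60 in Irx5KO. At P20 it was 1.68 and 0.987 in WT 1 and 2, 2.22 and 0.120 in Irx5KO 1 and 2, 4.33 and 2.06 in WT 3 and 4, and 1.44 and 4.53 in Irx5KO 3 and 4. The genotypes overlapped at P18 and on both P20 dates, and the differences were smaller than their SE: 0.14 ± 0.94, −0.19 ± 1.16 and −0.10 ± 1.15 (log2). With so few counts a change of this gene was not detectable unless large.

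Cdkn2c, at chr4:109660876-109667189 on the minus strand, encodes p18Ink4c. At P18 it was 3.34, 4.07 and 3.03 CPM in WT and 4.19, 1.79 and 1.97 in Irx5KO. The later P20 date had 8.93 and 6.04 in WT 1 and 2 and 2.91 and 7.32 in Irx5KO 1 and 2, which overlapped (difference −0.55 ± 0.63, log2). The earlier date had 5.36 and 3.51 in WT 3 and 4 and 25.3 and 24.2 in Irx5KO 3 and 4, and Cdkn2c rose by 2.48 ± 0.66 (log2, edgeR adjusted p = 0.0448). Those 2 libraries, with the most Mki67, exceeded all 12 others. The share of all genes that did so was not computed. The rise kept its direction in every fit that left out 1 library, and lost its call without P20 WT 3 (adjusted p = 0.233), WT 4 (0.31), Irx5KO 3 (0.0849), Irx5KO 4 (0.0993), Irx5KO 1 (0.0529) or Irx5KO 2 (0.0607), and without P18 Irx5KO 2 (0.0715) or 3 (0.0726).

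Cdkn2c too has a pair of RefSeq starts, and the windows around both are shown. Nearly all of its counts, and all of those in the high libraries, belonged to the longer transcript, whose GENCODE start lies upstream of both windows. Capitals mark the same motifs.
Cdkn2c upstream start, chr4:109666707-109667006, minus strand: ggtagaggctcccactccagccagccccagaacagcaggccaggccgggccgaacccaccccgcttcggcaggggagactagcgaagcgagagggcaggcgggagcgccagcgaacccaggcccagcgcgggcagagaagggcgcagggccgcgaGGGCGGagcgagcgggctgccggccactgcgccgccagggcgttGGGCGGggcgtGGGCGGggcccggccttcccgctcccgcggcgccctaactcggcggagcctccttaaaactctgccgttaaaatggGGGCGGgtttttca
Cdkn2c downstream start, chr4:109665323-109665622, minus strand: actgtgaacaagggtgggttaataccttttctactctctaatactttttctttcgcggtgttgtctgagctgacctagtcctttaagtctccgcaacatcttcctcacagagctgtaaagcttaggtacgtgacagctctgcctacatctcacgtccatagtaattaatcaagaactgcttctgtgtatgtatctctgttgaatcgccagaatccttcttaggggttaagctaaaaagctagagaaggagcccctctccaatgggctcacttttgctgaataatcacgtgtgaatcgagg
The upstream window has 4 GGGCGG matches and a GC content of 73.3%, and the downstream window has none and 44.0%. The E2F motif TTTNNCGC was found in neither window. It lies in 5.17% of all RefSeq windows and in both windows of Cdkn2a. The longer GENCODE transcript, Cdkn2c-202, starts at position 109667189, upstream of the RefSeq start at 109666756. Its first exon spans 109665610-109667189, so the upstream window lies within that exon. The sequence before the start of Cdkn2c-202 is not shown. Cdkn2c-202 held 91.3% of the Cdkn2c counts, including all 368 in P20 Irx5KO 3 and all 439 in P20 Irx5KO 4. Cdkn2c-201, from the downstream start, held 8.71%, and its largest share was 59.8% of 95.0 counts in P18 Irx5KO 2. Both transcripts share 1 coding part.

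Cdkn2d, at chr9:21288410-21291407 on the minus strand, encodes p19Ink4d. It was 13.8, 6.50 and 23.5 CPM in P18 WT and 15.8, 21.3 and 27.1 in P18 Irx5KO. At P20 it was 16.7 and 14.6 in WT 1 and 2, 15.97 and 22.73 in Irx5KO 1 and 2, 14.91 and 21.96 in WT 3 and 4, and 23.16 and 35.99 in Irx5KO 3 and 4. The genotypes overlapped except on the earlier P20 date, where the difference was 0.68 ± 0.42 (log2, edgeR adjusted p = 0.455). Estimates were positive in all 3 comparisons (0.34 ± 0.36 at P18 and 0.31 ± 0.42 on the later P20 date), and none passed.

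Counted as a family, 0 of the 6 genes tested were called between labelled genotypes at P18 by edgeR, where 0% of 24592 genes were called and 0 inhibitor genes had an unadjusted p under 0.05. Over all genes 977 had such a p, and DESeq2 and limma voom called 23 and 1 genes, 0 of them inhibitors. The P18 fit held 1 genotype term for both P20 dates, so genes with opposite differences there, such as Cdkn1a and Cdkn1c, had wide SEs. The lack of calls at P18 is therefore weak evidence of no difference. The median difference of the 6 genes was 0.28, against −0.55 over all genes tested and −0.00336 over the well-expressed ones. Judged from correlated deviations in these data alone, replicate numbers paired the P18 libraries, though not always within a date. Cdkn1a, Cdkn1b, Cdkn1c and Cdkn2d were higher in Irx5KO in 3 of 3 pairs, as were 10.5% of all genes tested, Cdkn2b was in 2 and Cdkn2c in 1. Only 27.68% of all genes tested had positive P18 estimates, and no share over well-expressed genes was computed. The 10.5% is therefore a low benchmark for those 4 well-expressed genes. With the number as a block the differences of those 4 were 0.76 ± 0.77, 0.35 ± 0.26, 0.73 ± 1.29 and 0.69 ± 0.39 (SE, edgeR adjusted p at least 0.601), and 0 of 6 passed. At P20 with both dates pooled, again 0 of 6 were called and 0% of all genes (1082 at an unadjusted p under 0.05, DESeq2 104, limma voom 56, with 0 inhibitors in each). Without the P20 libraries numbered 3 and 4 the P20 comparison called 1 inhibitor, Cdkn1c at 3.12 (adjusted p = 0.00294), against 0.431% of 27599 genes. The later P20 date gave 1 of 6 called, higher, against 0.655% of all genes and 0.138% higher. The earlier date gave 3 of 6, 1 higher and 2 lower, against 4.83% of all genes, 2.2% higher and 2.63% lower. Groups without overlap were commoner. None of the 6 had them with the P20 dates pooled (1.07% of all genes). On the later date Cdkn1a and Cdkn1c were apart and higher (12.7% of genes) and Cdkn1b apart and lower (17.3%), 3 of 6 against 30% of all genes. The earlier date had 4 of 6 apart against 40.5%, Cdkn2c and Cdkn2d higher (15.7%) and Cdkn1a and Cdkn1c lower (24.8%).

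The change of the genotype difference between the P20 dates was itself tested. It was −6.01 ± 0.58 for Cdkn1c (log2, earlier minus later date, edgeR adjusted p = 1.22e-05) and −3.29 ± 0.60 for Cdkn1a (adjusted p = 0.00591). It was 3.03 ± 0.91 for Cdkn2c, which did not pass (adjusted p = 0.0719, against 0.0034 in DESeq2). Cdkn1b, Cdkn2b and Cdkn2d gave 0.61 ± 0.39, 0.10 ± 1.63 and 0.38 ± 0.59, none passing. Thus 2 of 6 inhibitors were called, both lower, against 5.18% of all genes and 2.5% lower, and both held in each fit that left out 1 library. Mki67 gave 11.85 ± 0.68 and Irx5 4.37 ± 0.38 in the same fit.

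**Figure D4:**
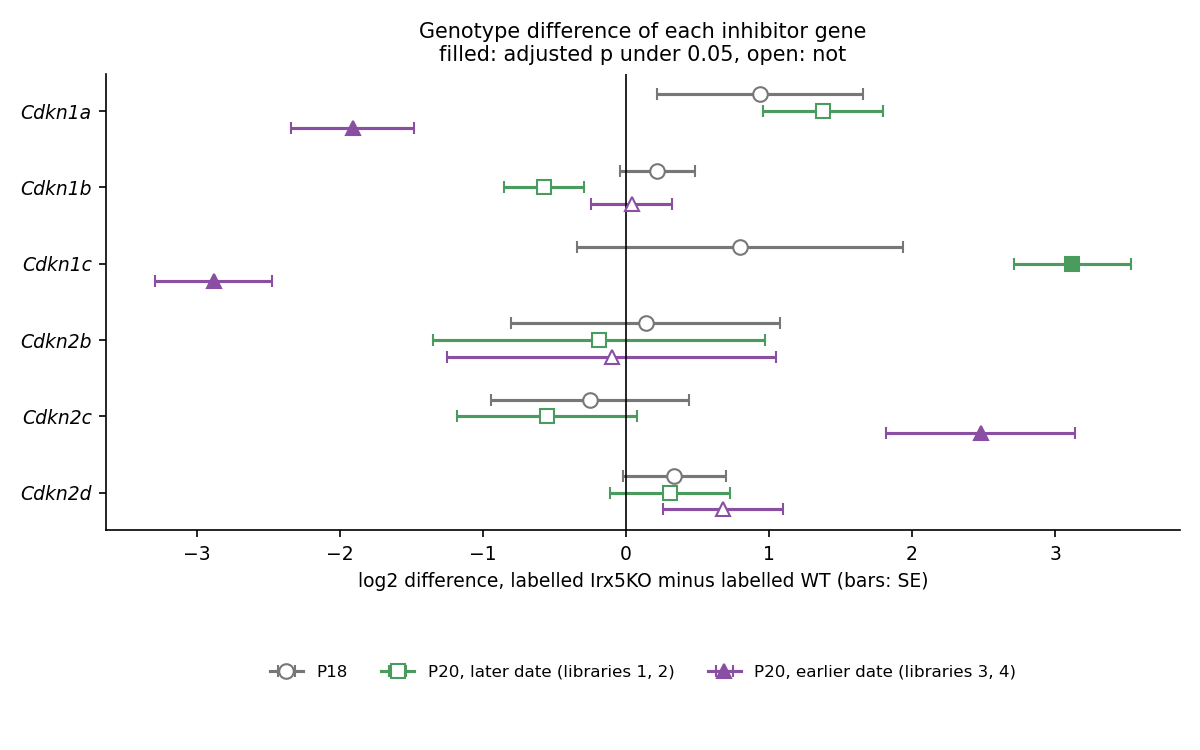
Log2 difference of labelled Irx5KO minus labelled WT for each inhibitor gene at P18 and on each P20 date, with bars for the SE; filled symbols passed an edgeR adjusted p under 0.05. Cdkn1c lies at 3.12 on the later and −2.88 on the earlier P20 date, while Cdkn1b lies between −0.57 and 0.22 in all 3.

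Setting each gene against Mki67 across the 14 libraries gave a slope, the log2 change of the gene per doubling of Mki67 CPM. Cdkn1c fell with Mki67 (slope −0.41 ± 0.07 SE, edgeR adjusted p = 0.00122) and Cdkn2c rose (0.34 ± 0.07, adjusted p = 0.00982). Cdkn1a had a slope of −0.22 ± 0.07 that did not pass (adjusted p = 0.121, against 0.039 in DESeq2), and Cdkn1b, Cdkn2b and Cdkn2d had slopes of 0.00 ± 0.04, −0.09 ± 0.15 and 0.05 ± 0.05. Thus 2 of 6 were called, 1 higher and 1 lower, against 2.92% of the 24591 genes tested, 1.96% higher and 0.956% lower. A gene that kept pace with Mki67 would have a slope of 1, so Cdkn2c rose by less than Mki67.

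The libraries fall into separate sets on this scale, 10 with a log2 Mki67 CPM of 1.92 to 5.19 and 4 (P20 WT 1, WT 2, Irx5KO 3 and Irx5KO 4) with 7.83 to 10.5. Within the 10, a fit added after the data were seen gave −0.66 ± 0.21 for Cdkn1c (adjusted p = 0.033), where 29.8% of genes were called, and −0.19 ± 0.28 for Cdkn2c (adjusted p = 0.615). That fit had no term for age or date. Its P18 libraries held 9.77 to 19.56 CPM of Cdkn1c at 14.06 to 36.52 CPM of Mki67. Its P20 libraries held 29.5 to 48.4 at 3.75 to 18.5, so Mki67 cannot be told apart from age and date there. The 4 libraries with higher Mki67 are too few for a fit of their own. Without the 2 libraries farthest from the median of Mki67, P20 Irx5KO 3 and 4, the slope of Cdkn1c was −0.55 (adjusted p = 0.0237) and that of Cdkn2c 0.16 (adjusted p = 0.603), with 0.268% of genes called, so the Cdkn2c relation rests on those libraries. Without either of them alone its adjusted p was 0.101 or 0.102. Without the P20 libraries numbered 3 and 4, whose Irx5 goes against their labels, Cdkn1c had a slope of −0.59 that did not pass (adjusted p = 0.123), and 0.192% of genes were called; this fit was also added after the data were seen. With the date as a term Cdkn1a passed as well (−0.26, adjusted p = 0.0241), with Cdkn1c at −0.46 and Cdkn2c at 0.27, and 5.03% of genes were called. Within P18 alone no gene was called (Cdkn1c −0.55 ± 0.38), and within P20 alone Cdkn1c was the only one of the 6 called (−0.47, adjusted p = 0.00372, 3.06% of genes). In bulk RNA, fewer cells of a type and less RNA per cell cannot be told apart, so neither a slope nor a ratio gives a level in dividing or in resting cells.

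**Figure D5:**
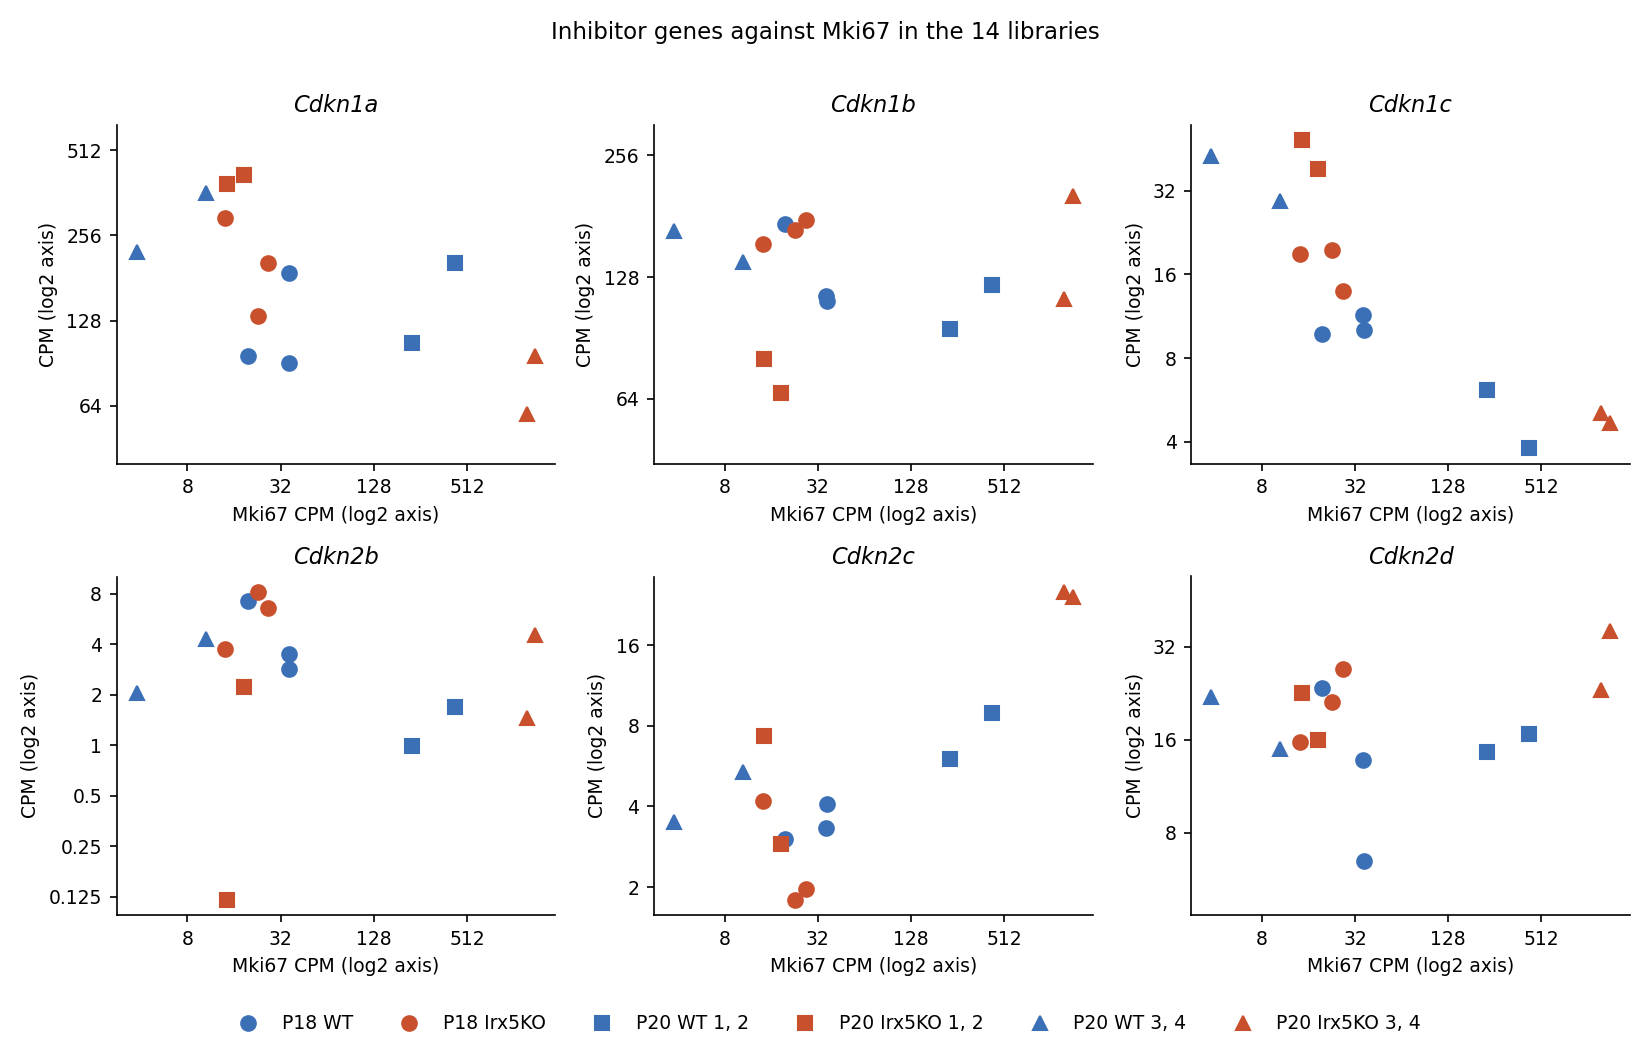
CPM of each of the 6 inhibitor genes tested against Mki67 CPM, both on log2 axes, with a point for each of the 14 libraries. Cdkn1c falls from 42.7 CPM in P20 WT 4 to between 3.79 and 6.16 in the 4 libraries with the highest Mki67 (227.8 to 1418), and Cdkn2c is highest in P20 Irx5KO 3 and 4.

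Per library, the TPM of Cdkn1a was 327.6 times that of Mki67 in P20 WT 4 and 188.7 times in P20 WT 3, the libraries with the least Mki67. It was 0.277 and 0.410 times in P20 Irx5KO 3 and 4. Cdkn1a was 14.7 to 115.5 times Mki67 at P18, 88.4 and 148.0 times in P20 Irx5KO 1 and 2, and 2.56 and 2.65 times in P20 WT 1 and 2. For Cdkn1c the ratio ran from 0.0353 in P20 Irx5KO 4 to 109.7 in P20 WT 4. For each of the 6 genes tested, the 4 libraries with the highest Mki67 had the 4 lowest ratios. Each ratio holds Mki67 in its denominator, so this order is a description.

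Between ages, 0 of 6 inhibitors were called in WT (0.195% of genes) and 0 of 6 in Irx5KO (1.57%), and none had ages without overlap (12.4% and 13.8% of genes). In WT the P20 minus P18 differences were 0.84 ± 0.64 for Cdkn1a, 0.97 ± 0.91 for Cdkn1c, 0.78 ± 0.67 for Cdkn2c and −0.99 ± 0.94 for Cdkn2b (log2, SE). In Irx5KO, Cdkn2c came closest, with 2.49 ± 0.72 (edgeR adjusted p = 0.108). There 1 inhibitor of 6 had an unadjusted p under 0.05, against 3320 of all 24592 genes tested. Cdkn2b gave −1.58 ± 0.95 there and Cdkn1b −0.53 ± 0.33. Leaving out the P20 libraries numbered 3 and 4, 2 of 7 inhibitors tested were called in Irx5KO, against 2.06% of 27599 genes (0.844% in WT, with 0 inhibitors): Cdkn1b fell by 1.18 ± 0.28 (adjusted p = 0.0446) and Cdkn1c rose by 1.31 ± 0.32 (adjusted p = 0.0486). In the same fit Cdkn1c turned to −1.06 ± 0.34 in WT (adjusted p = 0.179). Age cannot be told apart from date in these comparisons.

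Of 11 cyclin and kinase genes whose products the inhibitors bind, 2 fell on the later P20 date and none rose (median −1.09, against −0.34 over all genes): Cdk4 by 1.23 ± 0.25 (log2, edgeR adjusted p = 0.0299) and Ccnd2, a D-type cyclin, by 1.78 ± 0.36 (adjusted p = 0.038). Each lost its call in 8 of the 14 fits that left out 1 library, the 4 of that date among them, with adjusted p up to 0.492 and 0.546. They also missed the threshold with TMM over all genes (0.181 and 0.14), in limma voom (0.281 and 0.39), in a fit of the compared groups alone (0.227 and 0.0725) and without the receptor-rich libraries (0.132 and 0.191). On the earlier date 6 of 11 rose and 1 fell (median 1.96, against 0.00). Cdk4 was 43.9 and 49.2 CPM in WT 3 and 4 and 118.4 and 115.4 in Irx5KO 3 and 4, a rise of 1.33 ± 0.25 (adjusted p = 0.0049). Cdk1, the mitotic kinase, rose by 4.93 ± 0.55, Ccnd2 by 1.96 ± 0.37, Cdk6 by 1.27 ± 0.26, Ccnd1 by 1.41 ± 0.34 and Ccna2 by 7.12 ± 0.92. Ccnd3, another D-type cyclin, fell by 0.98 ± 0.25 (adjusted p = 0.0314), from 153.2 and 182.0 CPM to 85.4 and 84.2. Of these, Cdk1 and Ccna2 passed in all 14 fits that left out 1 library. Cdk4 and Ccnd2 did not pass without P20 WT 3 (adjusted p = 0.108 and 0.137). Cdk6 lost its call in 3 of them, Ccnd3 in 4 (each of the libraries of that date) and Ccnd1 in 5, with adjusted p up to 0.196, 0.187 and 0.383. With TMM over all genes Cdk6, Ccnd3 and Ccnd1 missed the threshold as well (0.0628, 0.109 and 0.0613). Along Mki67, 6 of 11 rose (median 0.21, against −0.02): Cdk1, Ccna2, Ccne2, Cdk2, Cdk4 and Cdk6. Without the 2 libraries farthest from the median of Mki67 the calls of Cdk1 and Ccna2 held and those of the other 4 were lost (adjusted p = 0.441 to 0.599). Without the P20 libraries numbered 3 and 4 none of the 6 passed (0.0845 to 0.999). In the 10 libraries with lower Mki67 only Cdk1 of the 6 passed, and Cdk4 turned to −0.07.

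Among 12 genes that turn over p27 and p21, none passed on the later P20 date in edgeR (4 at an unadjusted p under 0.05, median −0.32). On the earlier date 3 rose and 1 fell (median 0.62). Dtl, the substrate receptor that marks p21 for destruction during replication, rose by 3.35 ± 0.49 (log2, edgeR adjusted p = 8.98e-04), with Cdc20 at 5.25 ± 0.64 and Cks2 at 3.57 ± 0.62. Cul1, the scaffold of the ligase that holds SKP2, fell by 1.55 ± 0.28 (adjusted p = 0.0045). Its CPM was 152.8 and 110.5 in WT 3 and 4 and 41.7 and 48.4 in Irx5KO 3 and 4, and without WT 3 it did not pass (adjusted p = 0.0597). Of 16 regulators of the Cdkn2a and Cdkn2b locus none passed on the later date (1 at an unadjusted p under 0.05). On the earlier date E2f1 rose by 2.90 ± 0.49, the Polycomb methyltransferase gene Ezh2 rose by 1.12 ± 0.29 and Id1 fell by 1.51 ± 0.35 (median of the list −0.30). E2f1 did not pass without P20 WT 4 (adjusted p = 0.0538), and Ezh2 and Id1 lost their calls in 7 and 5 of the 14 fits, with adjusted p up to 0.311 and 0.201, both without WT 4. Ezh2 also missed the threshold with TMM over all genes (0.18).

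Of 20 other p53 targets, 0 passed on either P20 date by edgeR, with medians of 0.11 on the later and −0.26 on the earlier date. At an unadjusted p under 0.05 were 1 on the later and 5 on the earlier date, against 1702 and 4172 of all 24592 genes tested. On the earlier date Btg2 gave −1.37 ± 0.40 (adjusted p = 0.0671), which is also an immediate early gene. Bbc3, which encodes the death protein PUMA, gave 1.10 ± 0.40 on the later and −1.08 ± 0.40 on the earlier date, neither passing, and −2.18 ± 0.57 for the change between dates (adjusted p = 0.0361). Of the 20, it was the only one called for that change, and it lost the call in 6 of the 14 fits that left out 1 library (adjusted p up to 0.145), with TMM over all genes (0.0567) and in limma voom (0.068). Between ages in Irx5KO, Pmaip1 fell by 2.71 ± 0.45, Plk2 by 1.56 ± 0.33 and Fas by 1.79 ± 0.41, while Sesn2 rose by 1.99 ± 0.39, so 1 rose and 3 fell. These lost their calls in 1, 7, 7 and 4 of the 14 fits that left out 1 library, with adjusted p up to 0.054, 0.192, 0.27 and 0.139, all but Sesn2 highest without P18 Irx5KO 3 and Sesn2 without P18 Irx5KO 2. Without the P20 libraries numbered 3 and 4, Pmaip1 (0.147) and Fas (0.0615) did not pass. Of 20 FoxO, TGF-beta and BMP genes, which regulate or share inputs with Cdkn1a, Cdkn1b and Cdkn2b, none passed on the later P20 date (6 at an unadjusted p under 0.05). Foxo6 rose (2.20 ± 0.55) and Foxo3 fell (−1.29 ± 0.35) on the earlier date, and each lost its call without P20 WT 3 (adjusted p = 0.33 and 0.459) and in 4 and 6 other such fits, and Foxo3 with TMM over all genes (0.109).

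Imprinted genes near Cdkn1c on chromosome 7 were read beside it. Kcnq1ot1 and H19, also listed, had no entry in the deposited data and could not be read. Of 11 tested, none passed on the later P20 date (0 at an unadjusted p under 0.05), where Cdkn1c rose, and 2 fell on the earlier date. They were Tnfrsf23, at 8.12 and 6.23 CPM in WT 3 and 4 and 0.138 and 0.166 in Irx5KO 3 and 4, and Slc22a18, at 3.23 and 5.63 in WT and listed at 0 in both Irx5KO libraries. Slc22a18 did not pass without WT 3, WT 4 or Irx5KO 4 (adjusted p = 0.0524 to 0.0655). Of 12 tested genes of the imprinted growth network elsewhere in the genome (Meg3, also listed, had no entry), 1 was called on each date. Dlk1, which encodes a membrane protein of the Notch ligand family, rose by 2.35 ± 0.45 on the later date (adjusted p = 0.0236) and fell by 4.10 ± 0.49 on the earlier date (adjusted p = 1.7e-04). It was 28.5 and 14.1 CPM in P20 Irx5KO 1 and 2, against 3.48 and 4.86 in WT 1 and 2, and its slope on Mki67 was −0.56 ± 0.07. The later call was lost without Irx5KO 1 (adjusted p = 0.265), WT 1 (0.128) or WT 2 (0.0897), in limma voom (0.807) and in a fit of the compared groups alone (0.23). The slope missed the threshold without the P20 libraries numbered 3 and 4 (−0.61, adjusted p = 0.135). None of the 4 tested neighbours of the INK4 genes on chromosome 4 passed in any comparison (at most 1 at an unadjusted p under 0.05 on either P20 date). Mtap, next to Cdkn2a, gave −1.74 ± 0.66 on the later and 1.18 ± 0.65 on the earlier date.

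The genes whose log2 level followed each inhibitor most closely over the 14 libraries are given as a description, with Pearson's r and no test. For Cdkn1a they were Epop (0.95), Rnf19b (0.945) and Maff (0.938), and for Cdkn1b Mpzl1 (0.94), Bloc1s1 (0.919) and Grn (0.895). For Cdkn1c they were Tef (0.905), Cables1 (0.893) and Axl (0.889). Cdkn2c was followed by Acat2 (0.956), Cep192 (0.955) and Suv39h1 (0.941), Cdkn2b by Tbrg1 (0.903), Sdc3 (0.9) and Hist1h4i (0.89), and Cdkn2d by Aatf (0.905), Nudt4 (0.877) and Ctcf (0.861). Highest values of r were picked from 9908 or 9909 genes, and the libraries share depth and date differences.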

How the data were processed

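The 14 libraries are single-end total RNA (TruSeq) of sorted cells, with RIN above 8 per the labels' protocols. The authors quantified reads with kallisto 0.46.2, per the submitters' processing notes, and deposited estimated counts and TPM per transcript. The notes also name mm10 and DESeq2, with no version of the latter.

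Transcripts were summed to genes with GENCODE vM21 (116816 of 118489 matched; the rest held 1.19% to 2.59% of counts), and estimated counts were rounded. edgeR 4.0.16 (R 4.3.3) fitted quasi-likelihood models over all libraries, with a term per group (and date, where genotypes were compared). For the slope the term was log2 of Mki67 CPM, with 0.5 added to the Mki67 count. The P18 and pooled P20 differences came from a fit with 1 genotype term per age, and those by date from a fit with 1 per date. TMM factors came from 10536 genes of at least 8 CPM. P-values were adjusted over all genes tested by Benjamini-Hochberg and called under 0.05. SEs derive from the F statistic and are approximate. DESeq2 1.42.0 and limma 3.58.1 were alternatives. Simulated counts with known changes were run through the later-date and slope fits only, and their outcome is not reported here. The P18, pooled P20 and age fits were not simulated. No source used here says whether counting used strand, so Cdkn1a and Cdkn1c are uncertain where another gene overlaps them on the other strand.

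The members and lists were chosen with earlier results of these data known. Named genes are the members, Mki67, Irx5, listed genes that passed or ranked among the 4 smallest p of a list, and the 3 genes most alike each member. Marker lists of other cells and of dissociation are given beside results.

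Replicate numbers paired libraries by correlated deviations (r above 0.1 in every pair) at P18 (0.37, 0.17, 0.27) and between ages in WT (0.34, 0.79, 0.57), and not at P20 or between ages in Irx5KO. No source used here says what equal numbers share. The pairing is inferred from these same data, and the cut of 0.1 has no test. The 0.79 joins P18 WT 2 and P20 WT 2, both rich in receptor counts.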

Additional observations from a re-analysis of the deposited data

Results flagged for a closer look

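Within the 4 P20 WT libraries, Cdkn2a was at 1.737 CPM in WT 2 and at 0 in the other 3 and so stood apart. With the other 3 at 0 any count would stand apart in this way, so this says nothing about the spread. WT 2 is also a library rich in olfactory and vomeronasal receptor counts, and the part of that in the value was not tested.

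The genotype difference of Cdkn1a changed between the P20 dates by −3.29 ± 0.60 on the log2 scale (edgeR adjusted p = 0.00591), and that of Cdkn1c by −6.01 ± 0.58 (adjusted p = 1.22e-05). In both, every Irx5KO library of the later date was above its WT libraries and every one of the earlier date below. Irx5 and Mki67 changed in the opposite direction between the dates. Of the 9 dissociation and immediate early response genes, 6 were called in the same direction. The part of these changes in the Cdkn1a and Cdkn1c results was not tested.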

How the results depend on the processing

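Values are log2 differences, slopes or numbers of genes called. With TMM over all genes, the median of well-expressed genes moved to 0.213 at P18, 0.292 between ages in WT, −0.115 on the earlier P20 date and −0.152 for the difference between dates. Cdkn1b then gave −0.07 on the earlier date and 0.23 between ages in WT, Cdkn2b −0.06 for the difference between dates, and 0 and 143 genes were called between ages in WT and Irx5KO. Median-ratio factors gave Cdkn1b 0.06 between ages in WT. With no expression filter 183 genes were called at P18, 209 at P20, 668 on the later date (2 inhibitors, Cdkn1a being added), 2100 on the earlier date and 2041 for the difference. DESeq2 called 23, 104, 463, 2647 and 2405 in that order, 682 between ages in WT (Cdkn1b 0.06), 1390 in Irx5KO (1 inhibitor, Cdkn2c) and 1526 for the slope. Limma voom called 1 gene at P18, 56 at P20, 32 on the later date (0 inhibitors), 1891 on the earlier date, 14338 between ages in WT (Cdkn1b 0.32, Mki67 −1.12) and 1288 in Irx5KO (1 inhibitor, Cdkn1b; Cdkn2d −0.11, Irx5 −0.82). Without the 3 receptor-rich libraries, P18 gave Cdkn1b −0.01 and Mki67 0.32, P20 gave Cdkn1c −1.34, 1879 genes were called on the earlier date and 2 between ages in WT, where Cdkn2d was −0.44. Fits of the compared groups alone called 33 genes on the later date (0 inhibitors), 708 on the earlier date, 0 between ages in WT and 148 in Irx5KO. Without a date term Cdkn1a at P20 was 0.10.

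Without the P20 libraries numbered 3 and 4, P20 had 119 genes and 1 inhibitor called, with Cdkn1a 1.37, Cdkn2c −0.56, Irx5 −2.07 and Mki67 −4.33. Between ages, 233 genes were called in WT (Cdkn1c −1.06) and 568 genes and 2 inhibitors in Irx5KO (Cdkn2d −0.15, Irx5 −1.41, Mki67 −0.36), and the slope called 53 genes and 0 inhibitors (Cdkn2d −0.08). The slope with a date term called 1236 genes (Cdkn2b 0.02). P18 alone called 0 genes and 0 inhibitors (Cdk2 −0.02, Cdk4 −0.24, Cdkn2c −0.09, Cdkn2d −0.64, Cks2 −0.03), P20 alone 1 inhibitor (Cdkn2b 0.01), and the fit without the 2 farthest libraries 74 genes and 1 inhibitor (Cdkn2d −0.07). The 10 libraries with lower Mki67 gave 7724 genes and 1 inhibitor (Cdk4 −0.07, Cdkn2b 0.38, Cdkn2c −0.19, Cdkn2d −0.16, Cks1b −0.07). The cause of these changes was not tested.

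With the replicate number as a block, the earlier P20 date had 985 genes called instead of 1187 and 2 inhibitors instead of 3 (Cdkn2c 2.51, adjusted p = 0.0836), with Cdkn1b at −0.01. Ccna2 (0.0515), Ccnd3 (0.0531) and Ezh2 (0.0683) lost their calls there too, as did Cdk4 (0.0739), Ccnd2 (0.137) and Dlk1 (0.317) on the later date and Fas (0.0706) between ages in Irx5KO. The block changed no other count of inhibitors called. At P20, 4 of 8 libraries correlated best with their own number, and in Irx5KO between ages 3 of 7.

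Leaving out 1 library at a time, genes called ranged from 0 to 1 at P18, 29 to 255 on the later P20 date, 424 to 1575 on the earlier date, 649 to 1446 for the difference, 5 to 88 between ages in WT, 56 to 419 in Irx5KO and 287 to 991 for the slope. Inhibitors called ranged from 1 to 3 on the earlier date, 0 to 1 between ages in Irx5KO (Cdkn2c, without P20 Irx5KO 1) and 1 to 2 for the slope. Values that changed sign ranged, at P18, from −1.33 to 0.37 for Mki67 and −0.65 to 0.22 for Cdkn2c. At P20 they ranged from −0.93 to 0.38 for Cdkn1a, −1.40 to 1.64 for Cdkn1c, −1.15 to 0.23 for Cdkn2b, −0.77 to 1.04 for Irx5 and −2.67 to 5.87 for Mki67. On the later date Cdkn2c ranged from −1.33 to 0.03 and Cdkn2b from −3.38 to 0.76, and on the earlier date Cdkn1b from −0.43 to 0.41 and Cdkn2b from −1.14 to 0.50. The difference for Cdkn2b ranged from −0.94 to 3.22. Between ages, WT gave Cdkn1b −0.18 to 0.20 and Cdkn2d −0.15 to 0.71, and Irx5KO gave Cdkn1a −0.24 to 0.52, Cdkn1c −0.17 to 0.81 and Cdkn2d −0.08 to 0.32. The slope of Cdkn2d ranged from −0.01 to 0.07. None of the values of changed sign was called.

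Each P20 date compares 2 libraries with 2, and the spread is pooled over all libraries. Cdkn2a and Cdkn2b have few counts, and small changes of them were not detectable at this depth.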
